A study of Sus scrofa with 12 samples.

Results

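Porcine oocytes of the class named SM that had been matured with GDNF (SM_GDNF, 3 arrays) were compared with oocytes of the class named LG that had been matured without it (LG_control, 3 arrays). These are 6 of the 12 arrays of the series, taken by the source name of each sample. The question was whether GDNF brought SM oocytes nearer to untreated LG oocytes across genes, so the 3 arrays of untreated SM oocytes (SM_control) stood beside them as the starting point. The labels do not spell out SM and LG. All oocytes came from crossbred prepubertal gilts of Sus scrofa and, in every group, were matured in vitro for 44 h in TCM199 with porcine follicular fluid at 10%, LH, FSH and EGF. The GDNF dose is not in the labels. The cumulus cells were then removed with hyaluronidase and by pipetting, so that the labelled material is the denuded oocyte. Each array set a pool of such oocytes against the same reference, a mixture of oocytes of all 4 treatment groups, and the RNA had been amplified by in vitro transcription before labelling. Per the labels the number per pool was 2 for samples and 16 for the reference, whereas the design text gives 9 biological replicates per condition in pools of 3 per array. These statements do not match, and the p-values below measure the spread between these pools and arrays.

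GDNF is a secreted ligand of the TGF-beta superfamily. It binds the co-receptor GFRA1, which presents it to the receptor tyrosine kinase RET, and adaptors such as GRB2 pass the signal to the RAS and MAP kinase cascade. NCAM1 can serve as another receptor for GDNF bound to GFRA1. In the ovary GDNF is known as a factor of the follicle, and it has been used as an additive to in vitro maturation media. An oocyte near the end of maturation transcribes little, so its mRNA levels follow mainly from storage, polyadenylation and decay of maternal transcripts.

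Each of the 3 slides held 1 array per group. The dye of the sample was Cy5 on slide 1 and Cy3 on the other slides, and the sources used here do not say whether the deposited ratios were turned to a common direction. The mean ratios of the slides correlated at r = 0.64 (slides 1 and 2), 0.61 (1 and 3) and 0.59 (2 and 3) across 11914 genes, which did not settle it. Values are therefore differences between deposited ratios of sample and reference, treated as log2, and they carry no direction of expression. A second fit with slides 2 and 3 turned, called the opposite reading below, has the same standing as the ratios as deposited. A distance between 2 arrays of the same slide is the same in either reading. The spread of the ratios (SD over features) lay between 0.454 and 0.547 on 11 arrays and was 0.871 on LG_control 2, an array of slide 3 with 489 features above 4. A ratio to an oocyte reference gives no absolute level, so marker genes could not show how pure the oocytes were. Fewer cells of a type and less RNA per cell cannot be told apart in such pools.

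Over all genes, SM oocytes matured with GDNF were not measurably nearer to untreated LG oocytes than untreated SM oocytes were. The root mean square difference from the LG_control array of the same slide was 0.57, 0.33 and 0.77 for SM_GDNF on slides 1, 2 and 3. For SM_control it was 0.44, 0.49 and 0.78. SM_GDNF was thus the farther of the 2 on slide 1, the nearer on slide 2, and about as far on slide 3, where both arrays lay far from LG_control 2. The distance averaged 0.56 ± 0.22 for SM_GDNF and 0.57 ± 0.18 for SM_control (SD, n = 3 slides each). Their difference per slide was 0.13, -0.16 and -0.011, with a mean of -0.012 ± 0.15 (SD, n = 3), and an exact two-sided test over the 8 ways of exchanging the 2 SM arrays within slides gave p = 0.75. The smallest p that 3 slides allow is 0.25, so the design could not have shown a difference at the usual threshold. The mean turned to 0.061 without slide 2, to 0.0081 with arrays matched by pool number instead of slide, and to 0.085 with LG_GDNF in place of LG_control as the target. For comparison, SM_GDNF lay 0.44 ± 0.0084 from SM_control and 0.47 ± 0.057 from LG_GDNF, and LG_GDNF lay 0.54 ± 0.13 from LG_control (SD, n = 3 each).

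**Figure D1:**
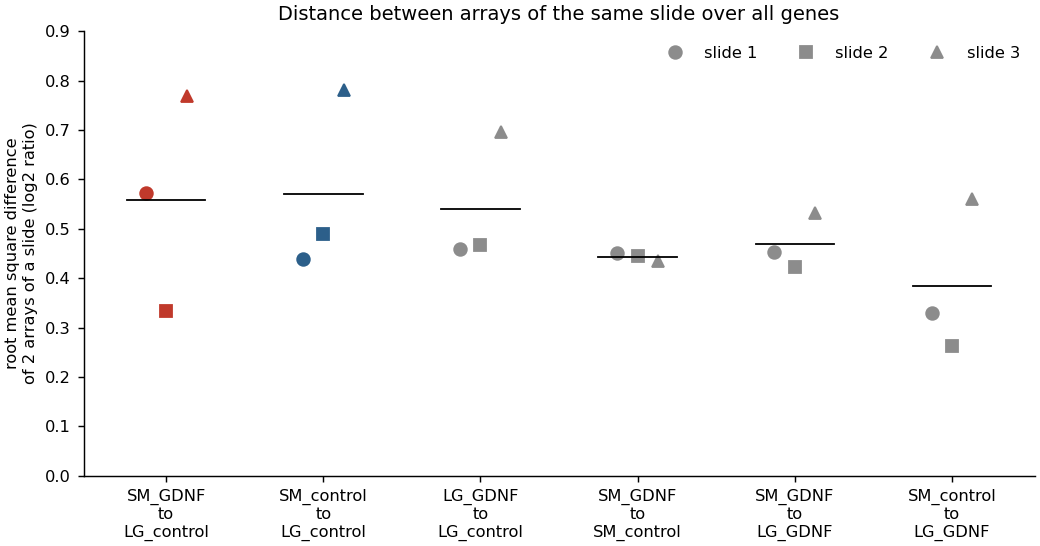
Root mean square difference (log2 ratio, vertical axis from 0) over 11914 genes between the 2 arrays of a slide for each pair of groups; symbols are slides and bars are means of 3. SM_GDNF to LG_control lay at 0.57, 0.33 and 0.77 and SM_control to LG_control at 0.44, 0.49 and 0.78, so the order of the pairs changed from slide to slide.

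Gene by gene the answer also differed between slides, each with 1 pool per group. SM_GDNF was nearer than SM_control to the LG_control array for 5015 genes on slide 1 (42.1% of all genes), for 7126 on slide 2 (59.8%) and for 6235 on slide 3 (52.3%). On all 3 slides together 1437 genes (12.1%) were nearer and 1159 (9.73%) were farther. The most common of the 8 patterns, farther on slide 1 and nearer on slides 2 and 3, held 2203 genes. Both distances share the LG_control array of their slide, and genes are not independent, so these are descriptions without a test. With LG_GDNF as the target, 8.28% of genes were nearer and 19.4% farther on every slide.

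Genes that differed most between the untreated classes followed the slide they were measured on. The tenth of genes with the largest difference between SM_control and LG_control was chosen on 1 slide and measured on another, 1191 genes each time. Measured on slide 2, SM_GDNF was nearer to LG_control than SM_control was, with differences in distance of -0.35 (genes chosen on slide 1) and -0.30 (chosen on slide 3). Measured on slide 1, SM_GDNF was farther, with 0.40 (chosen on slide 2) and 0.28 (chosen on slide 3). On slide 3 it was slightly farther, with 0.093 (chosen on slide 2) and 0.048 (chosen on slide 1), where all genes together gave -0.011. The side thus went with the slide measured, whichever slide had chosen the genes. As each slide held 1 pool per group, a slide and the single pools on it cannot be told apart.

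The difference between SM_GDNF and LG_control hardly repeated between slides. Across the 11914 genes, which are not independent replicates and share the reference and the probes, slides 2 and 3 correlated at r = -0.033 with 50.7% of genes on the same side, slides 1 and 2 at r = 0.022 (53.1%) and slides 1 and 3 at r = 0.16 (54.3%) as deposited. The opposite reading turns the sign of the last 2. Between slides 2 and 3, which share the dye orientation, the ratios of the SM_GDNF arrays themselves correlated at r = 0.56, those of SM_control at 0.36 and those of LG_control at 0.18. The SM_GDNF arrays were thus the most alike and the LG_control arrays the least alike, and the LG_control pair includes LG_control 2 with its wide spread. Of the pairs within a slide, SM_GDNF 3 and LG_control 3 on slide 2 correlated at r = 0.68, against 0.20 for SM_GDNF 2 and LG_control 2 on slide 3 and 0.16 for SM_GDNF 1 and LG_control 1 on slide 1.

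**Figure D2:**
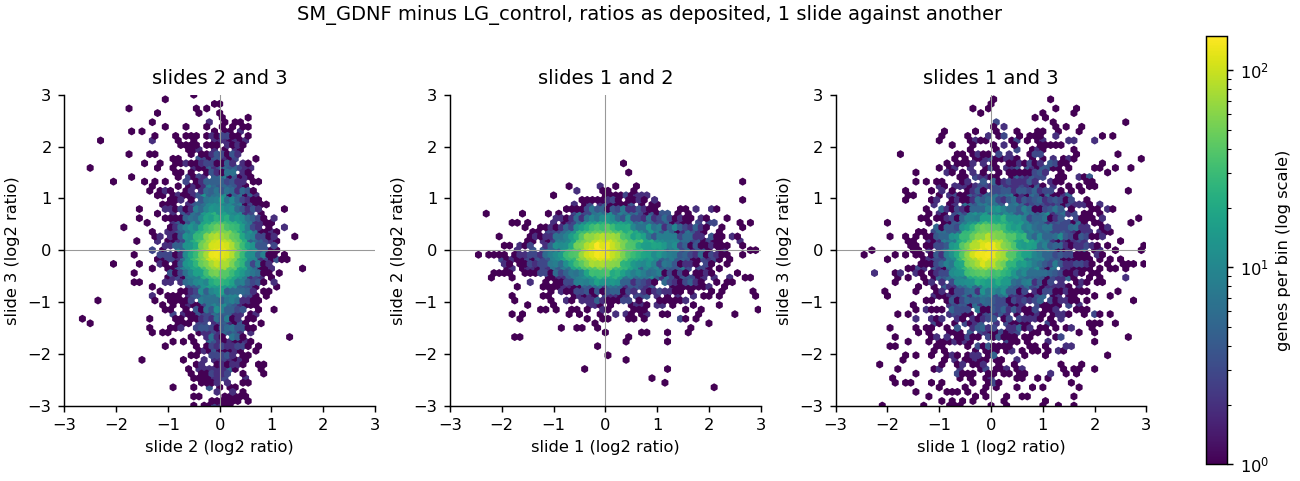
Difference between SM_GDNF and LG_control per gene on 1 slide against another (log2 ratio on both axes, -3 to 3, ratios as deposited); colour gives genes per bin on a log scale. The clouds of slides 2 and 3 (r = -0.033) and of slides 1 and 2 (r = 0.022) show no slant, and that of slides 1 and 3 a slight one (r = 0.16).

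No single gene passed between SM_GDNF and LG_control. Limma called 0 of 11914 genes at an adjusted p under 0.05 (0%), with 882 at an unadjusted p under 0.05 (7.40%), whereas without SM_GDNF 3 it called 197, described at the end. If no gene differed, 595.7 genes would be expected to have such a p, and genes that vary together widen the spread of that count. Of the 882, 484 were above and 398 below LG_control as deposited, a split that depends on the unsettled direction. The opposite reading called 0 with 438 at that unadjusted p (3.68%, 285 above and 153 below in that reading), and slides 2 and 3 alone called 0 with 343 (2.88%). The median size of a difference was 0.16 over all genes, below the median standard error of 0.196. SM_control against LG_control, which shares the LG_control arrays, called 0 with 846 at that unadjusted p.

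The 10 genes with the smallest p as deposited each kept 1 side of LG_control on all slides, an outcome that choosing them by p favours. TMED7, a p24 cargo adaptor of the secretory pathway, had ratios of 0.72, 0.67 and 0.64 in SM_GDNF (slides 1, 2 and 3), 0.49, 0.78 and 0.47 in SM_control, and -0.47, 0.30 and -0.69 in LG_control. The SM_GDNF values were the tightest of the 3 groups and did not overlap those of LG_control, which the choice by p also favours. Its size was 0.96 with a standard error of 0.184, and SM_control lay 0.87 from LG_control. GNAT2, the alpha subunit of cone transducin, had 0.90, 0.78 and 0.89 in SM_GDNF, 0.040, 0.47 and 0.32 in SM_control, and -0.071, 0.31 and -0.23 in LG_control. Here the SM_GDNF arrays lay above both other groups, whose ranges overlapped, and the size was 0.86 with a standard error of 0.165. TAF9, a subunit of the general transcription factor TFIID, had 0.067, 0.42 and 0.35 in SM_GDNF, -0.52, 0.86 and 0.25 in SM_control, and -1.36, -0.054 and -1.31 in LG_control. Its size was 1.19 (standard error 0.230), and the LG_control value of slide 2 stood well above the other LG_control values.

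SKP2, the F-box protein by which an SCF ubiquitin ligase recognises the CDK inhibitor p27, lay on the other side. Its ratios were -0.16, -0.40 and -0.30 in SM_GDNF, -0.11, 0.086 and -0.088 in SM_control, and 0.42, 0.39 and 0.31 in LG_control. The 3 groups did not overlap, with SM_control in the middle, and the size was 0.66 (standard error 0.131), against 0.41 for SM_control. The choice by p favours such a gap between SM_GDNF and LG_control. GLIPR1, a secreted protein of the CAP family, had -0.15, -0.61 and 0.15 in SM_GDNF, -0.14, -0.30 and 0.18 in SM_control, and 0.27, 0.92 and 2.28 in LG_control. Its size was 1.36 (standard error 0.299), and its distance was largest on slide 3 (2.13), where LG_control 2 stood far above the other arrays. The transcription factor USF2 had a size of 1.07 on the side of SKP2 and GLIPR1. On the side of TMED7 were the ciliary protein RPGR (0.66), the centrosomal protein PIBF1 (1.13), the sorting nexin SNX31 (1.21) and the lysosomal membrane protein SCARB2 (0.86). The adjusted p of each of the 10 genes was 0.659 in limma.

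SM_control lay on the same side of LG_control as SM_GDNF for each of these 10 genes, with sizes between 0.27 (GNAT2) and 1.24 (GLIPR1). On slides 1 and 3 all 10 were farther from LG_control with GDNF, and on slide 2 TMED7, TAF9, RPGR, PIBF1, SNX31, SCARB2 and USF2 were nearer. A choice by a small p for SM_GDNF against LG_control favours a large distance, so these counts do not bear on the question. In the opposite reading the fitted difference changed sign for each of the 10 genes. The sizes there lay between 0.080 (RPGR) and 1.08 (GLIPR1), with a limma adjusted p of 0.998 each. On slides 2 and 3 alone they lay between 0.56 (RPGR) and 1.83 (GLIPR1), also with 0.998. Without SM_GDNF 3 all of them except SKP2 and GLIPR1 passed, with adjusted p between 0.0222 and 0.0415 in limma.

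**Figure D3:**
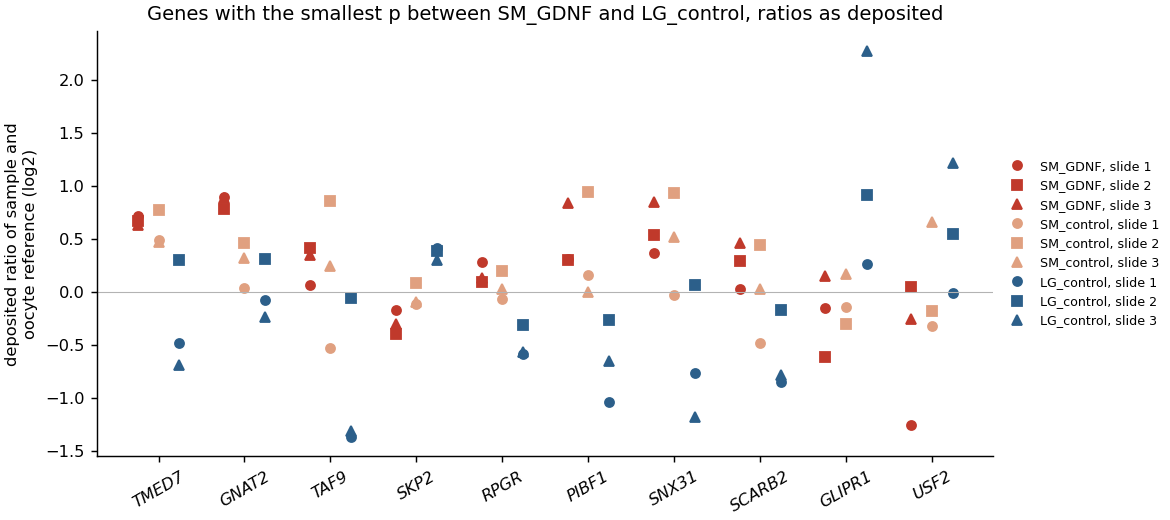
Deposited log2 ratio of sample and reference for the 10 genes with the smallest p as deposited; points are arrays, colours are groups (SM_GDNF, SM_control, LG_control) and symbols are slides. For TMED7 the SM_GDNF arrays lay at 0.64 to 0.72 and LG_control at -0.69 to 0.30, and for most genes SM_control lay with or near SM_GDNF.

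The 8 arrays of slides 2 and 3 run the same way and gave another set of leading genes, chosen by their p there. ZP2, a protein of the zona pellucida, had ratios of -0.34 and -0.73 in SM_GDNF on slides 2 and 3, -0.70 and -0.44 in SM_control, and 0.72 and 1.16 in LG_control. Its size was 1.47 (standard error 0.257). On slide 1 SM_GDNF was at 0.11, SM_control at -0.73 and LG_control at -0.91, so LG_control was the lowest there as deposited. ZFAND3, a zinc finger protein, had 0.45 and 0.33 in SM_GDNF, 0.35 and 0.039 in SM_control, and 1.30 and 1.40 in LG_control, a size of 0.96 (standard error 0.190). Slide 1 ran the other way as deposited for it, with 1.10 in SM_GDNF, 0.33 in SM_control and -0.61 in LG_control.

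GLIPR1 led this set with 1.83, and IGFBP7, a secreted binding protein of the insulin-like growth factor system, had 1.21. PDHA1, the alpha subunit of the pyruvate dehydrogenase E1 component, had 1.09, the lysosomal protein DRAM2 0.92, ezrin (EZR), which links actin to the plasma membrane, 1.37, and the collagen chain COL1A2 0.94. None passed (limma, adjusted p 0.998 each). For ZP2, ZFAND3, DRAM2, EZR and COL1A2 the side changed between slide 1 and the other slides as deposited, and for GLIPR1, IGFBP7 and PDHA1 it did not. SM_control stood on the side of SM_GDNF on slides 2 and 3 for each of the 8 genes. The choice by p used the same LG_control arrays, which favours this, so it is no independent support.

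**Figure D4:**
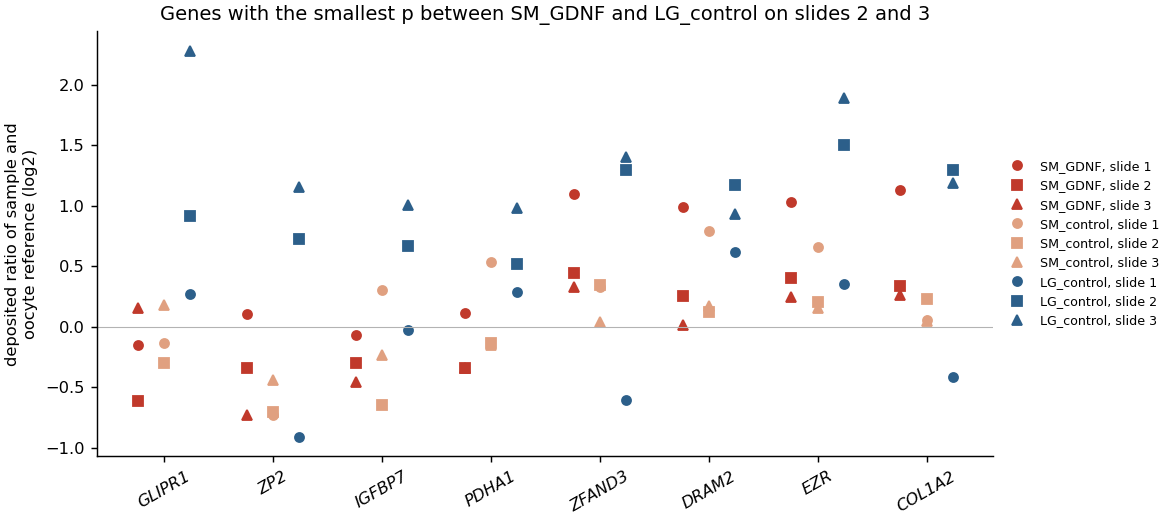
Deposited log2 ratio of sample and reference for the 8 genes with the smallest p on slides 2 and 3; points are arrays, colours are groups (SM_GDNF, SM_control, LG_control) and symbols are slides. On slides 2 and 3 LG_control stood above both SM groups, and for ZP2, ZFAND3 and COL1A2 the LG_control array of slide 1 was at -0.91, -0.61 and -0.41.

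In the opposite reading the smallest p belonged to ZFAND3, with a size of 1.21. ZP2, also named from slides 2 and 3, was among the 8 genes chosen there with 1.32. The others were MEGF9, a membrane protein with EGF-like domains, at 2.01, asparagine synthetase (ASNS) at 1.74, the nuclear pore protein SEH1L at 1.42, the membrane progesterone receptor PAQR5 at 1.01, the SOCS box protein ASB11 at 0.90 and the RNA-binding protein STRBP at 0.66. None passed (limma, adjusted p 0.998 each). As deposited the same 8 genes had sizes between 0.073 (ZFAND3) and 0.64 (ZP2). MEGF9 had 1.90, -0.16 and 0.68 in SM_GDNF, 0.37, 1.28 and -0.30 in SM_control, and -0.19, 2.48 and 1.97 in LG_control. Its LG_control arrays of slides 2 and 3 stood above all SM arrays of these slides, and that of slide 1 stood below both SM arrays of slide 1.

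The 5 genes that were nearer to LG_control with GDNF on every slide by the largest margin were chosen by that margin, ranked on the slide where it was smallest. DDO, the D-aspartate oxidase, lay 0.028, 0.024 and 0.036 from LG_control in SM_GDNF on slides 1, 2 and 3, and 0.53, 0.63 and 0.55 in SM_control. SM_GDNF and LG_control thus had nearly the same ratio on each slide. SH3PXD2B, an adaptor of podosomes, lay 0.053, 0.0053 and 0.0041 away in SM_GDNF and 0.51, 0.48 and 0.45 in SM_control. The semaphorin SEMA5A lay at most 0.16 away in SM_GDNF and at least 0.46 in SM_control. The kinase JAK1 lay 0.028, 0.17 and 2.47 away in SM_GDNF and 0.80, 0.66 and 3.17 in SM_control, with LG_control 2 at 2.57 against 0.061 and -0.42 on the other LG_control arrays. The actin-binding protein TRIOBP lay 0.79, 0.015 and 0.15 away in SM_GDNF and 1.22, 0.48 and 0.73 in SM_control.

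The difference between the untreated classes behind this nearness lay on opposite sides on slides 2 and 3 for all 5 genes, in either reading. For DDO the deposited ratio of SM_control was above that of LG_control on slides 1 and 3, at 0.54 against 0.013 and 0.51 against -0.044, and below it on slide 2, at -0.13 against 0.50. SH3PXD2B showed the same pattern. On those slides the SM_GDNF array of DDO was at -0.014 and -0.0076 (slides 1 and 3) and at 0.53 (slide 2).

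The 5 genes that were farther on every slide by the largest margin were chosen in the same way. COQ3, a methyltransferase of coenzyme Q synthesis, lay 1.95, 1.44 and 1.35 from LG_control in SM_GDNF and 1.08, 0.41 and 0.15 in SM_control. UBE2T, a ubiquitin-conjugating enzyme of DNA crosslink repair, lay 1.85, 0.86 and 0.87 away in SM_GDNF and 0.40, 0.30 and 0.11 in SM_control. ID2, an inhibitor of helix-loop-helix transcription factors, lay 1.14, 1.08 and 2.91 away in SM_GDNF and 0.67, 0.46 and 1.98 in SM_control. SLC25A3, the mitochondrial phosphate carrier, and FKBP15, an FK506-binding family protein, completed the 5, with distances from 0.65 to 2.18 in SM_GDNF and from 0.10 to 1.33 in SM_control. For all 5 the SM_GDNF arrays stood above LG_control on slides 1 and 3 and below it on slide 2 as deposited.

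The genes of the GDNF pathway were measured for 24 of 37 listed members, and 0 passed. Of these, 3 had an unadjusted p under 0.05 in limma, against 7.40% of all genes, 2 above and 1 below LG_control as deposited. The median size was 0.14, beside 0.16 over all genes. SM_GDNF was nearer than SM_control to LG_control for 12, 14 and 13 of the 24 on slides 1, 2 and 3, and for 3 of them on every slide. GRB2, the adaptor between receptor tyrosine kinases and RAS, was among those 3. Its ratios were -0.12, 0.41 and 0.36 in SM_GDNF, -0.22, -0.12 and -0.25 in SM_control, and 0.65, 1.25 and 0.73 in LG_control. SM_GDNF stood between the other groups on each slide, at a distance from LG_control of 0.78, 0.84 and 0.37, against 0.87, 1.37 and 0.98 for SM_control. The fitted difference was 0.66 (standard error 0.168) for SM_GDNF and 1.07 for SM_control (limma, adjusted p 0.659 for SM_GDNF). In the opposite reading the size for SM_GDNF was 0.14.

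MAP2K1, the MAP kinase kinase MEK1, had 0.056, 0.055 and 0.20 in SM_GDNF, -0.14, 0.43 and 0.12 in SM_control, and -0.47, -0.13 and -0.44 in LG_control. Its size was 0.45 (standard error 0.157, limma adjusted p 0.659), and in the opposite reading 0.10. The ligand GDNF had -0.58, -0.61 and -0.65 in SM_GDNF, 0.047, -0.34 and -0.98 in SM_control, and -0.18, -0.45 and -0.21 in LG_control. SM_GDNF was below LG_control on each slide as deposited, with a size of 0.33 (standard error 0.201, adjusted p 0.741 in limma). It had 0.071 when slides 2 and 3 were turned. The ratio of the GDNF transcript says nothing of the added protein.

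None of the receptors had an unadjusted p under 0.05 between SM_GDNF and LG_control in either reading or on slides 2 and 3. GFRA1 had -0.017, -0.12 and 0.15 in SM_GDNF, -0.031, -0.34 and -0.33 in SM_control, and -0.31, 0.19 and 0.16 in LG_control, with a size of 0.0100 (standard error 0.180). RET had a size of 0.019 (0.221) and NCAM1 of 0.11 (0.510). The NCAM1 ratios of LG_control were spread from -0.30 on slide 3 to 2.26 on slide 2, and those of SM_GDNF from 0.14 to 1.29. With slides 2 and 3 turned GFRA1 had 0.20 (0.153), RET 0.23 (0.180) and NCAM1 0.066 (0.549).

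Oocyte and maternal-effect genes, the markers of the labelled cell type, were measured for 23 of 32 members, and 0 passed. There were 2 with an unadjusted p under 0.05 (all genes 7.40%), and the median size was 0.27. On slides 2 and 3 it was 0.44, and 0.45 with these slides turned, beside 0.17 and 0.14 over all genes. On slides 2 and 3 alone 4 of 23 had such a p (all genes 2.88%), and with them turned 3 did (all genes 3.68%). Of the 23, 17 were below LG_control on these slides alone as deposited and 6 above, beside 6200 of all 11914 genes below. By slide the median difference of the list was 0.15, 0.048 and -0.29 on slides 1, 2 and 3 as deposited. Slide 2 thus did not share the lean of slide 3, where the LG_control array is LG_control 2. SM_GDNF was nearer than SM_control to LG_control for 11, 14 and 12 members on slides 1, 2 and 3. These shares were 47.8%, 60.9% and 52.2%, beside 42.1%, 59.8% and 52.3% of all genes. On every slide 2 members were nearer (all genes 12.1%). The median ratio of the list lay between -0.17 and 0.020 in SM_GDNF, between -0.27 and -0.083 in SM_control, and between -0.28 and 0.33 in LG_control, whose highest value was that of LG_control 2.

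BTG4, the adaptor that brings the CCR4-NOT deadenylase to maternal mRNA, had -0.055, 0.21 and 0.69 in SM_GDNF, -0.88, 1.34 and 0.18 in SM_control, and -1.64, -0.16 and -1.38 in LG_control. Its size was 1.34 (standard error 0.355, limma adjusted p 0.659) as deposited and 0.28 when slides 2 and 3 were turned. Without SM_GDNF 3 it passed, with 1.88 (limma, adjusted p 0.0191). ZP4, another zona protein, had 0.54 (0.211, limma adjusted p 0.659), with LG_control at -0.52, 0.054 and 0.52 and SM_GDNF at -0.51, -0.42 and -0.65. On slide 1 the 2 groups were therefore alike in ZP4. GDF9, a growth factor by which the oocyte acts on cumulus cells, had 1.87, 1.01 and 0.77 in SM_GDNF, 0.38, 1.53 and -0.34 in SM_control, and -0.35, 0.94 and 2.84 in LG_control. The LG_control arrays of GDF9 spanned all SM_GDNF values, with a fitted size of 0.076 (0.726) as deposited, 0.996 to the other side on slides 2 and 3 alone, and 1.40 with these slides turned. BMP15, its close relative, had 0.025 (0.459) and the zona protein ZP3 0.21 (0.307). These were 0.56 (0.283) and 0.41 (0.340) with the slides turned.

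Meiosis and M-phase genes were measured for 40 of 59 members. None passed, and the median size was 0.34. An unadjusted p under 0.05 was found for 6 (all genes 7.40%), 5 above and 1 below LG_control as deposited. With slides 2 and 3 turned 3 had such a p (all genes 3.68%) and the median size was 0.17. On these slides alone 1 did so (all genes 2.88%) and it was 0.28. SM_GDNF was nearer than SM_control for 12 of 40 on slide 1, 27 on slide 2 and 20 on slide 3. MAD2L1, the spindle checkpoint protein, had 0.86, 0.12 and 1.29 in SM_GDNF, -0.52, 2.45 and 0.0036 in SM_control, and -1.78, -0.33 and -1.16 in LG_control, with a size of 1.85 (standard error 0.621). Cyclin E1 (CCNE1), a partner of CDK2, had 0.17, 0.55 and 0.996 in SM_GDNF, -0.41, 1.16 and 0.19 in SM_control, and -0.70, 0.0077 and -1.57 in LG_control, with a size of 1.33 (0.379). For both the SM_GDNF and LG_control values did not overlap as deposited, and SM_control spanned a wide range (limma, adjusted p 0.659 each). Both genes were chosen for the smallest p of the list in this comparison, which favours values that do not overlap. With slides 2 and 3 turned MAD2L1 had 0.090 and CCNE1 0.75. Without SM_GDNF 3 MAD2L1 passed, with 2.78 (limma, adjusted p 0.0224).

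Among 14 measured genes of the G protein and cAMP control of meiotic arrest 1 had an unadjusted p under 0.05 (all genes 7.40%). It was PRKAR1A, a regulatory subunit of protein kinase A, at 0.74 (standard error 0.216, limma adjusted p 0.659). GNAS, the stimulatory G protein alpha subunit, had 0.34 (0.181). Turning slides 2 and 3 gave PRKAR1A 0.41 and GNAS 0.13. Of 36 measured genes of maternal mRNA polyadenylation and decay 3 did so, BTG4 and PABPC1L among them. PABPC1L, the embryonic poly(A)-binding protein, had -0.47, 0.084 and 0.32 in SM_GDNF, -0.99, 0.24 and -0.11 in SM_control, and -1.36, -0.40 and -0.67 in LG_control. SM_GDNF was above LG_control on each slide as deposited, with a size of 0.79 (0.185, limma adjusted p 0.659), and had 0.19 in the opposite reading. Without SM_GDNF 3 it passed, with 0.98 (limma, adjusted p 0.0393). SM_GDNF was nearer than SM_control to LG_control for 5 of the 36 on every slide (all genes 12.1%) and farther for 4 (all genes 9.73%).

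Genes of oxidative phosphorylation were measured for 49 of 78 members. None passed, and 6 had an unadjusted p under 0.05 (all genes 7.40%), 3 on each side. Their median size was 0.35, with 37 of 49 above LG_control as deposited, beside 5764 of all 11914 genes. The median difference was 0.27 as deposited and 0.051 with slides 2 and 3 turned, so its size depends on the unsettled direction. On slides 2 and 3 alone it was 0.16, with 36 of 49 above LG_control as deposited, beside 5714 of all 11914 genes. By slide it was 0.42, -0.065 and 0.36 on slides 1, 2 and 3, so slide 2 did not share the lean. With GDNF, SM oocytes were nearer to LG_control than untreated SM oocytes for 13 of 49 members on slide 1 (26.5%), 32 on slide 2 (65.3%) and 14 on slide 3 (28.6%). All genes gave 42.1%, 59.8% and 52.3%. On every slide 0 of 49 members were nearer (all genes 12.1%) and 7 were farther (all genes 9.73%). NDUFA8, a subunit of complex I, had 0.73, 0.986 and 0.996 in SM_GDNF, 0.057, 0.66 and 0.052 in SM_control, and -1.01, 0.59 and 0.091 in LG_control. SM_GDNF was the highest group on each slide as deposited, with a size of 1.01 (standard error 0.302), and was the farther SM group on each slide. NDUFS3, another complex I subunit, had 0.77 (0.253), and the adjusted p of both was 0.659 in limma. NDUFS3 passed without SM_GDNF 3, with 1.10 (limma, adjusted p 0.0420). In the opposite reading NDUFA8 had 0.14 and NDUFS3 0.17. The list there had a median size of 0.17, with 0 members at that unadjusted p (all genes 3.68%).

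Cytosolic ribosomal protein genes differed between slides. For 48 of 80 members measured, the median difference between SM_GDNF and LG_control was -0.18 on slide 1, -0.39 on slide 2 and 0.91 on slide 3, and that between SM_control and LG_control was 0.19, -0.51 and 1.05. None passed and 3 had an unadjusted p under 0.05 (all genes 7.40%). The list median of the ratios was -0.26, 0.58 and 0.28 in SM_GDNF on slides 1, 2 and 3, 0.090, 0.49 and 0.38 in SM_control, and -0.078, 0.83 and -0.59 in LG_control. The value of LG_control 2 on slide 3 stood below all SM arrays. RPS3, a protein of the small subunit, had a size of 0.90 (standard error 0.331) and RPS28 one of 0.74 (0.226), on opposite sides (limma, adjusted p 0.659 each). Both passed without SM_GDNF 3 (limma, adjusted p 0.0383 for RPS3 and 0.0398 for RPS28). With slides 2 and 3 turned their sizes were 0.37 and 0.25. The list then had a median size of 0.23, with 2 members at an unadjusted p under 0.05 (all genes 3.68%).

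Proteasome genes (32 of 44 measured) had a median size of 0.26 and 3 members at an unadjusted p under 0.05 (all genes 7.40%). The regulatory particle subunits PSMD8 at 1.01 (standard error 0.346) and PSMD4 at 0.41 (0.159) had the smallest p of this list. Lipid and sterol genes (27 of 43 measured) had a median size of 0.20 and 1 such member, HADHB of mitochondrial beta-oxidation, at 0.68 (0.271). PPARG, a nuclear receptor of lipid metabolism, had 0.98, 0.74 and 0.55 in SM_GDNF, 0.31, 0.36 and 0.35 in SM_control, and 0.37, 0.35 and 0.55 in LG_control. SM_control and LG_control overlapped in PPARG and SM_GDNF stood above both on slides 1 and 2, and by 0.0069 above LG_control on slide 3, with a size of 0.33 (0.175). None of the members of either list passed. With slides 2 and 3 turned PSMD8 had 0.64, PSMD4 0.38, HADHB 0.17 and PPARG 0.071.

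**Figure D5:**
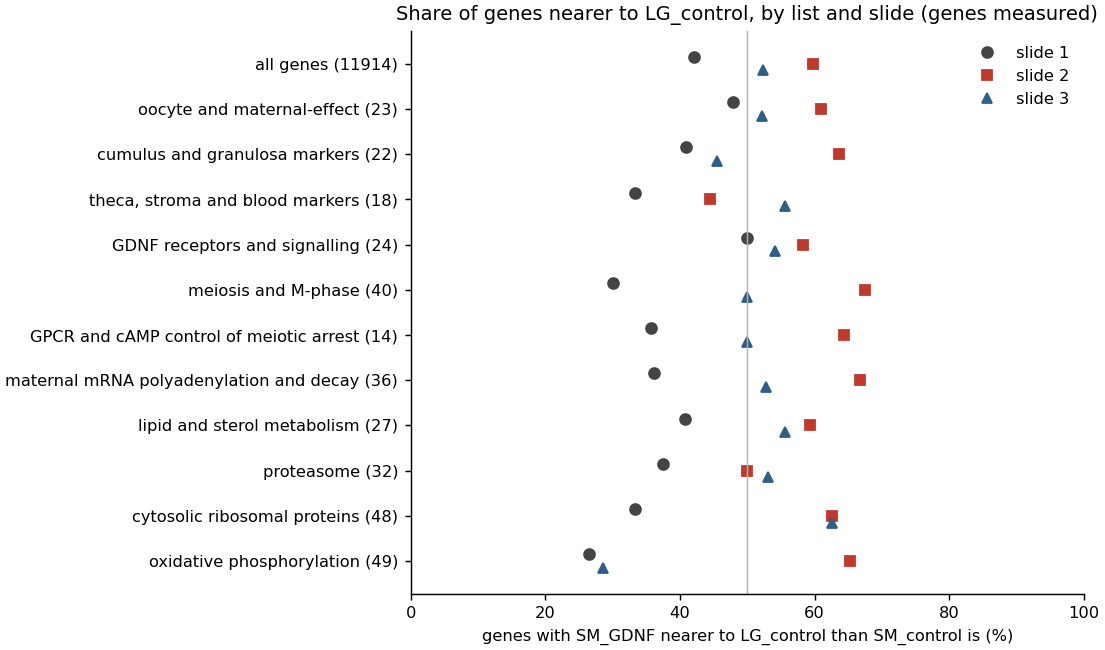
Share of the measured genes of each list (number in brackets) for which SM_GDNF was nearer than SM_control to LG_control (horizontal axis, %), with symbols for slides and a line at equal shares. All genes lay at 42.1%, 59.8% and 52.3% on slides 1, 2 and 3, and oxidative phosphorylation at 26.5%, 65.3% and 28.6%.

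Markers of cells other than the oocyte were listed too. Of 22 measured cumulus and granulosa markers 0 passed, 1 had an unadjusted p under 0.05 (all genes 7.40%) and the median size was 0.14. Their median ratio lay between -0.029 and 0.080 in SM_GDNF, between 0.045 and 0.18 in SM_control, and between -0.093 and 0.16 in LG_control. KITLG, the KIT ligand made by granulosa cells, had the smallest p at 0.55 (standard error 0.237, limma adjusted p 0.667), and anti-Müllerian hormone (AMH) had 0.22 (0.147). With slides 2 and 3 turned KITLG had 0.18 and AMH 0.033. Of 18 markers of theca, stroma and blood 0 passed, 1 had an unadjusted p under 0.05, and 14 were below LG_control as deposited, beside 6150 of all 11914 genes. Their median difference was -0.11 as deposited and 0.092 with slides 2 and 3 turned. Their median ratio lay between -0.085 and 0.15 in SM_GDNF, between -0.025 and 0.12 in SM_control, and between 0.038 and 0.15 in LG_control. HBM, a globin chain, had -0.25, -0.40 and 0.19 in SM_GDNF, -0.32, -0.17 and -0.82 in SM_control, and 0.87, -0.28 and 4.65 in LG_control. Decorin (DCN), a matrix proteoglycan of stroma, had -0.35, 0.36 and 0.38 in SM_GDNF, -0.31, 0.030 and 0.19 in SM_control, and 0.56, -0.053 and 2.22 in LG_control. The fitted sizes of HBM and DCN were 1.90 and 0.78 as deposited, and 1.16 and 0.17 with slides 2 and 3 turned. Both were highest on LG_control 2, the array with the widest spread, and their part in the differences of slide 3 was not tested.

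Leaving out SM_GDNF 3, the array of slide 2 that lay nearest to its LG_control array, was the only array left out that gave any call. Limma then called 197 genes (1.65%) at an adjusted p under 0.05, the smallest being 0.0174, with 1696 at an unadjusted p under 0.05 (14.2%). Of these 197, 154 were above and 43 below LG_control as deposited. Their median size was 1.15 on slide 1 and 1.41 on slide 3, and 0.22 on slide 2, where the array left out kept the same side for 139 of them. With all 12 arrays 167 of the 197 had an unadjusted p under 0.05. The 197 were chosen by p on the remaining arrays, LG_control 3 of slide 2 among them. That choice favours these sizes and the counts of 139 and 167, which are therefore no independent support. The same arrays in the opposite reading gave these genes a median size of 0.30, against 1.35 as deposited, and called 0 genes with 420 at that unadjusted p. Among the called genes of the lists were MAD2L1, CDC20, FBXO43, ANAPC10 and CKS1B of meiosis (5 of 40), BTG4 and PABPC1L of maternal mRNA decay and polyadenylation (2 of 36), RPS3 and RPS28 (2 of 48) and NDUFS3 (1 of 49). Those of the GDNF, cumulus, theca, cAMP, lipid and proteasome lists numbered 0.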

How the data were processed

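The authors' deposited values are log ratios of sample and reference, 1 per feature and array, for 45220 features of 12 two-colour arrays, treated here as log2; per the labels, RNA had been amplified by in vitro transcription and each channel held 1 dye. How they were normalized, the log base and which channel was the numerator is not given in the sources used here. Spot intensities were not used here, which leaves dim and saturated spots in, and precision is limited by the number of arrays. The platform annotation names 1 gene for 18121 features and none for 27099; symbols were updated through RefSeq and features were averaged per gene, giving 11914 genes, 3327 of them from several features and 881 with LOC placeholders.

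Genes were fitted with limma 3.58.1 (R 4.3.3) on the 4 groups with slide as a block, over all 12 arrays, with 6 residual degrees of freedom and two-sided Benjamini-Hochberg adjusted p over all genes. Recovery was tried on simulated ratios of 11914 genes, with 200 genes changed in SM_GDNF against LG_control. The fit recovered 58% of genes with a log2 change of 1 and 96% with a change of 2. In the deposited ratios the shares were 51% and 92%. They hold for a change that keeps its sign across slides as deposited. They do not cover one whose sign turns between slide 1 and the other slides, which the unsettled direction allows. Distances between arrays of a slide were compared by an exact test over slides. The text names the 10 genes with the smallest p in the ratios as deposited, the 8 with slides 2 and 3 turned and the 8 from these slides alone, the 2 members of each list with the smallest p, the 5 genes nearer and the 5 farther on every slide by the largest margin, and GDNF, GFRA1, RET, NCAM1, GRB2, GDF9, BMP15 and ZP3, leaving out LOC placeholders. CDC20, FBXO43, ANAPC10 and CKS1B were named after their values were seen. Members, lists and tests were chosen with earlier results of these data known. The pool numbers were not taken to pair samples: same-numbered deviations of SM_GDNF and LG_control correlated at -0.11, -0.022 and 0.099, not all above 0.1. Those of SM_GDNF and SM_control, whose pools 2 and 3 lie on different slides, did so at 0.097, 0.30 and 0.40, again not all above 0.1. For SM_GDNF and LG_control the pool number and the slide coincide.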

Additional observations from a re-analysis of the deposited data

How the results depend on the processing

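Limma called 0 genes between SM_GDNF and LG_control in each setting tried except without SM_GDNF 3 (197; leaving out 1 array at a time gave 0 to 197). The count at an unadjusted p under 0.05, 882 as reported, was 438 in the opposite reading, 343 on slides 2 and 3, 1420 with array weights, 532 with genes of small ratios left out (fewer genes tested), 1375 with features one by one (more tested), 420 in the opposite reading with SM_GDNF 3 left out, and 360 to 1696 with 1 array left out, where SM_GDNF 2 gave the lowest, SM_GDNF 1 gave 513 and SM_GDNF 3 gave the highest. With the replicate block by pool number it was 969, and with no replicate block 698; the block changed no call. The mean difference in distance (-0.012 as reported) ranged from -0.084 to 0.061 with 1 slide left out, and was 0.085 with LG_GDNF as target and 0.0081 by pool number. In genes with large class differences it turned to 0.40 and 0.28 on slide 1 and to 0.093 and 0.048 on slide 3. With LG_GDNF as target 19.4% of genes were farther on every slide. The mean cross-slide product, -0.0078 for slides 2 and 3, was 0.066 for slides 1 and 3, 0.063 with ratios limited to -2 to 2, and -0.066 in the opposite reading. For single genes a value below 0 here means the other side than as deposited, except in the opposite reading. There the sign was turned over again, so a value below 0 means that the fitted difference kept its sign as deposited. With all 12 arrays this was so for 7 of 51 named genes, such as GDF9, fitted at 0.076 as deposited and 1.40 in that reading. The sign of the others changed, as for TMED7, fitted at 0.96 and -0.17. In the opposite reading AMH had -0.033, HADHB -0.17, PPARG -0.071, NDUFA8 -0.14, NCAM1 -0.066, GDF9 -1.40 and ZP3 -0.41. With SM_GDNF 3 also left out AMH had -0.062, HADHB -0.082, PPARG -0.31, NDUFA8 -0.24, GDNF -0.0489, NCAM1 -0.29, GDF9 -1.72 and ZP3 -0.72. On slides 2 and 3 GDF9 had -0.996 and ZP3 -0.16. With quantile normalization ZFAND3 had -0.13, COL1A2 -0.0494 and NCAM1 -0.068, and with array weights ZFAND3 -0.014 and RET -0.0071. Leaving out 1 array gave -0.32 to 1.73 for ASNS, -0.31 to 0.62 for BMP15, -0.25 to 0.77 for COL1A2, -0.67 to 1.09 for GDF9, -0.15 to 0.20 for GFRA1, -0.22 to 1.52 for MEGF9, -0.23 to 0.54 for NCAM1, -0.19 to 0.92 for PAQR5, -0.16 to 0.21 for RET, -0.090 to 1.17 for SEH1L, -0.015 to 0.65 for STRBP, -0.36 to 0.81 for ZFAND3 and -0.060 to 0.45 for ZP3. The causes were not tested. The settings that left out an SM_control or LG_GDNF array, joined the opposite reading with a left-out array, matched arrays by pool, chose genes on 1 slide, limited the ratios in the products with slide 1, or recounted the genes nearer or farther on every slide (LG_GDNF as target among them) were added after seeing the data.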

Other observations

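The arrays of pool 2 other than LG_control 2 stood close together across genes. SM_GDNF 2 correlated at r = 0.75 with SM_control 2 and at r = 0.76 with LG_GDNF 2, and SM_control 2 correlated at r = 0.85 with LG_GDNF 2, although SM_GDNF 2 lay on slide 3 and the other two on slide 2. LG_control 2, on slide 3, correlated with these 3 arrays at 0.20, 0.15 and 0.16. SM_GDNF 1, of pool 1 on slide 1, did so at 0.595, 0.637 and 0.623, so the closeness was not confined to pool 2. The array nearest to LG_control 3 over all genes was SM_GDNF 3 (r = 0.68), followed by SM_control 3 (r = 0.56), on slide 3. LG_GDNF 3, on slide 3, had r = 0.031 with LG_control 3 and r = 0.42 with LG_control 2. These are descriptions across genes, which share the reference and the probes, and no explanation was tested.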
